A study of Mus musculus with 7 samples.

Results

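The Myc, Max and Mxd network was followed through 10 genes in G1E cells, a mouse erythroid line without functional GATA1 that stays at an immature precursor stage. The genes were chosen by name, as Myc, Mycn, Mycl, Max, Mxd1, Mxi1, Mxd3, Mxd4, Mnt and Mlx. All 10 were represented among the 22180 genes with a probeset of exactly 1 gene symbol on the Mouse Gene 2.0 ST array, and a gene with several such probesets was read from the one with the highest mean over the 7 arrays. Of the 10, Mxi1 alone had more than 1, namely 2. Total RNA was profiled on 7 arrays, 3 from Lockd control cells with wild-type Lockd and 4 from cells whose Lockd gene had been deleted with CRISPR/Cas9. All 7 shared the G1E background and growth medium, and no further agent or time point was named. The series calls the samples clones of the line, without saying how many clones or cultures they stand for, so p-values cover the spread among these 7 samples alone, and part of it may be technical. Lockd encodes a long non-coding RNA and lies beside Cdkn1b, the gene of the cyclin-dependent kinase inhibitor p27, and a deletion removes DNA together with its transcript.

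Myc, Mycn and Mycl are basic helix-loop-helix leucine zipper proteins that act as dimers with Max. These dimers bind the E-box CACGTG and recruit histone acetyltransferases, which raises the transcription of genes for ribosome making, nucleotide synthesis and growth. Mxd1, Mxi1, Mxd3, Mxd4 and Mnt compete for Max, bind the same E-box and recruit the Sin3 and histone deacetylase corepressors, so they act as antagonists of Myc. Mlx takes the place of Max in a parallel branch with the glucose-responsive factors MondoA and ChREBP. In erythroid precursors Myc is known for sustaining proliferation, and Mxd proteins are associated with cell cycle exit during maturation.

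The E-box that these proteins bind was itself present in promoters of the network, and its copies are shown because they place several members among the possible targets of the network's own dimers. RefSeq promoters of build GRCm38.p6, each 300 bases from 250 before to 50 after the gene's start, were found for 9 of the 10 members, 11 promoters in all. The motif CACGTG, which reads the same on both strands, was found once in each of 4 of them, at Max, Mxd4, Mnt and Mlx. The capitals mark the motif, with 12 bases on each side, 5′ to 3′ on the gene's strand.
Max: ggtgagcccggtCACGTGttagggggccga
Mxd4: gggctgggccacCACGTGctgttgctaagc
Mnt: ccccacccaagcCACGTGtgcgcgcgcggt
Mlx: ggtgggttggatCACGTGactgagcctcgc

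The Max window lies at chr12:76962234-76962263 on the minus strand, with the motif beginning 3 bases before the start of the gene and running across it. The Mxd4 window lies at chr5:34187912-34187941 on the minus strand, with the motif beginning 219 bases before the start. On the plus strand, the Mnt window lies at chr11:74830789-74830818 and its motif begins 123 bases before the start, and the Mlx window lies at chr11:101087238-101087267 with the motif 40 bases before the start. No CACGTG lay in these windows of Mycn, Mycl, Mxd1, Mxd3 or any of the 3 promoters of Mxi1, which says only that these letters are not in those 300 bases. The motif was held by 7.15% of all 32851 promoters. Counted by gene, it was held by 4 of 9 members, by 8.09% of all 27025 genes with a promoter and by 12.1% of the 8782 such genes whose mean signal lay above the median of all genes. Of the genes listed as induced by Myc, 24 of 93 with a promoter held it. These matches describe sequence and were not set against binding data.

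Markers of the line and of other cells were described by whether their signal lay above the median of all genes, which is a rough guide, since a probeset's signal also depends on its probes. It did for all 10 measured erythroid and 3 of 5 progenitor markers, for 3 of 6 megakaryocyte, 2 of 8 mast cell and basophil, 2 of 8 stromal and endothelial, 1 of 8 myeloid and 0 of 7 lymphoid markers. Lockd fell from 7.91 ± 0.12 (SD, n = 3) to 4.89 ± 0.48 (SD, n = 4), which checks the labels, and Cdkn1b fell from 9.18 ± 0.12 (SD, n = 3) to 8.03 ± 0.15 (SD, n = 4). They were the 2 probesets of 23521, or 0.00850%, that passed limma's test at an adjusted p under 0.05, at 0.0162 and 0.0251. In RNA of bulk cells, fewer cells with a transcript and less of it per cell cannot be told apart. Control replicate 2 stood apart from the other arrays along the first principal component (29.9% of the variance), and network values that move with it are given with and without it. Values below are log2 expression from robust multi-array averaging (RMA), and each difference is deletion minus control with its standard error (SE) from limma.

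None of the 10 network genes passed the test. Their differences ran from -0.24 for Mxi1 to 0.13 for Mycl, with 7 lower and 3 higher and a median of -0.07, where the median of all genes was 0.01. In limma 0 of 10 had an adjusted p under 0.05, where 0.00902% of all 22180 genes did, and each adjusted p was 0.999. At an unadjusted p under 0.05 there was 1 of 10, Mxi1, against 4.61% of all genes, of which 2.37% were lower like Mxi1. Mxi1 was also the 1 member of 10 whose groups did not overlap, against 5.19% of all genes, of which 2.54% were lower.

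**Figure D1:**
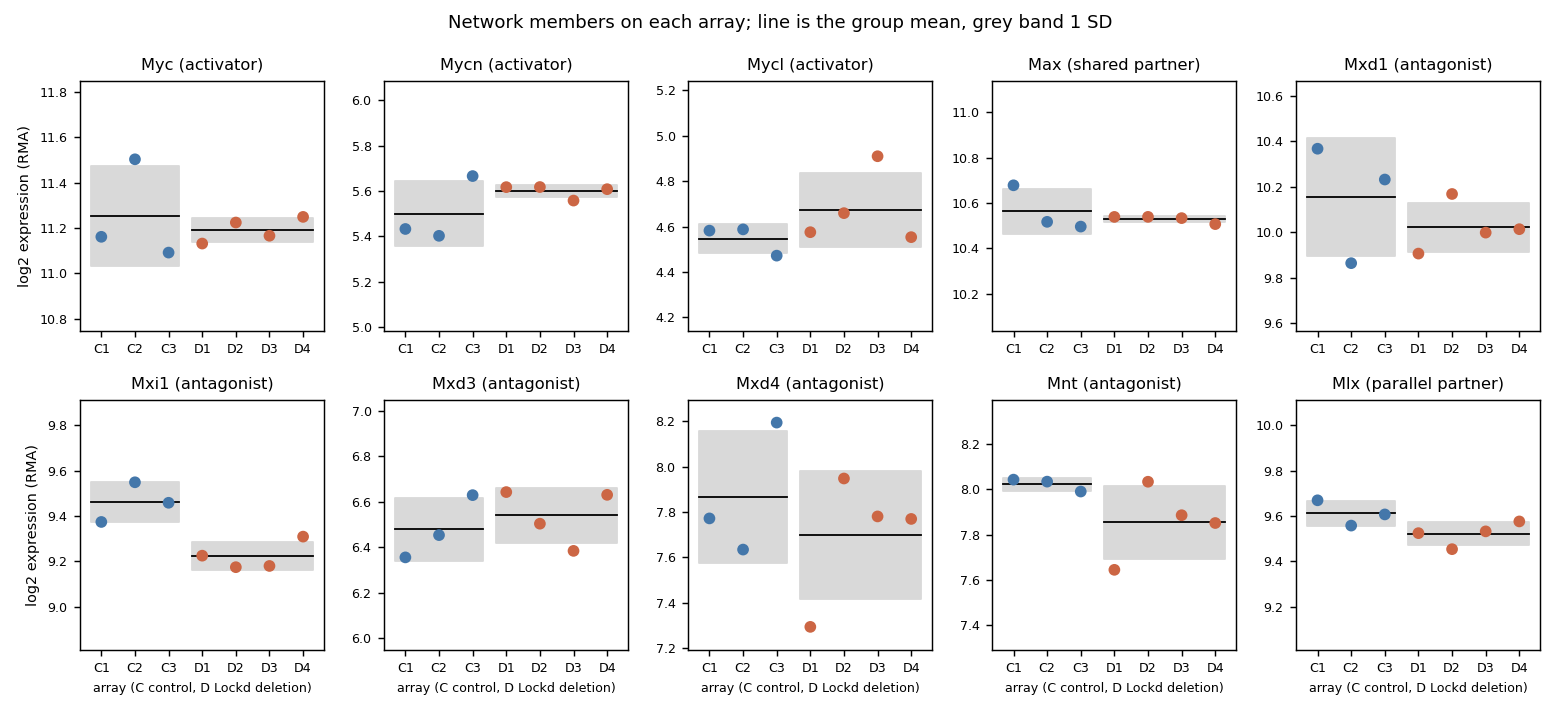
Log2 RMA expression of the 10 network genes on each of the 7 arrays (C1 to C3 control, D1 to D4 Lockd deletion), each panel with its own level but the same span; points are arrays, the line is the group mean and the band 1 SD. Only in the Mxi1 panel do the deletion arrays, at 9.17 to 9.31, all lie below the control arrays, at 9.37 to 9.55.

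Among the activators, Myc itself showed no detectable difference. It read 11.16, 11.50 and 11.09 on control replicates 1 to 3 and 11.13, 11.22, 11.17 and 11.25 on deletion replicates 1 to 4. Control replicate 2 held the highest value, and the 4 deletion arrays lay inside the control range. The difference was -0.06 (SE 0.10, limma unadjusted p 0.578), with a 95% interval of -18.4% to 12.9% on the linear scale. Without control replicate 2 the difference turned to 0.07, with an unadjusted p of 0.388, so its sign rests on that array. Within groups Myc varied less on the deletion arrays, with an SD of 0.05 (n = 4) against 0.22 (n = 3) on the control arrays, a difference in spread that was not tested.

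Mycn, the paralogue best known from neural and early embryonic tissue, read 5.43, 5.40 and 5.67 on control arrays and 5.62, 5.62, 5.56 and 5.61 on deletion arrays. All 4 deletion arrays lay below control replicate 3 and above the other control arrays. Its difference was 0.10 (SE 0.08, unadjusted p 0.240). Without control replicate 3 it was 0.18, with a limma p of 0.0311 before adjustment and over 0.05 after it, and without control replicates 1 or 2 in turn it was 0.07 and 0.05. Mycl, the third paralogue, read 4.58, 4.59 and 4.47 on control and 4.58, 4.66, 4.91 and 4.55 on deletion arrays. Deletion replicate 3 was the highest and the groups overlapped. The difference of Mycl was 0.13 (SE 0.10, unadjusted p 0.223) and 0.05 without deletion replicate 3. Both paralogues were dim, with a mean signal below the median of all genes, so background may hide a part of any change, and RMA values carry no detection call.

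Max, the shared dimer partner, was the most even member across the deletion arrays, at 10.54, 10.54, 10.53 and 10.51. The control arrays read 10.68, 10.52 and 10.50, with control replicate 1 the highest of all 7. The difference was -0.03 (SE 0.07, unadjusted p 0.628), with a 95% interval of -12.3% to 8.76%. Without control replicate 1 it was 0.02.

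Of the 5 antagonists, 4 were lower and 1 was higher, with a median of -0.17, and none passed the adjusted test. Mxi1, also called Mxd2, had the smallest p of the network. It read 9.37, 9.55 and 9.46 on control arrays and 9.23, 9.17, 9.18 and 9.31 on deletion arrays. Every deletion array lay below every control array, with a gap of 0.06 between the nearest pair. Control arrays averaged 9.46 ± 0.09 (SD, n = 3) and deletion arrays 9.22 ± 0.06 (SD, n = 4). The difference was -0.24 (SE 0.07), or -15.2% with a 95% interval of -24.2% to -5.09%. The unadjusted limma p was 0.00942 and the adjusted p 0.999. Over all 35 splits of the arrays, an exact permutation test gave two-sided p = 0.0286 counted by the size of the difference and 0.0571 with the smaller tail doubled, each the smallest its form allows, for a gene singled out after its values were seen. Leaving out each array in turn gave differences from -0.28 to -0.19.

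The other Mxi1 probeset did not separate the groups. It read 6.96, 7.35 and 7.08 on control arrays and 6.96, 7.02, 6.93 and 7.16 on deletion arrays. The groups overlapped, and control replicate 2 was the highest. The difference was -0.11 (SE 0.11, unadjusted limma p 0.317). It was 0.00 without control replicate 2 and -0.20 without control replicate 1. With both probesets averaged Mxi1 differed by -0.17 with an unadjusted p of 0.0733. RefSeq lists 3 promoters for Mxi1, and no source used here says which transcripts each probeset covers.

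Mxd1, the founding Mxd protein, read 10.37, 9.86 and 10.23 on control arrays and 9.91, 10.17, 9.998 and 10.01 on deletion arrays. Control replicate 2, the array with the highest Myc value, had the lowest Mxd1 value of all 7. The difference was -0.13 (SE 0.12, unadjusted p 0.308), with a 95% interval of -24.9% to 10.8%. Without control replicate 2 it was -0.28, with a limma p of 0.0181 before adjustment and over 0.05 after it, and without control replicate 1 it was -0.03.

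Mnt, a broadly expressed antagonist that also pairs with Mlx, read 8.04, 8.03 and 7.99 on control arrays and 7.64, 8.03, 7.89 and 7.85 on deletion arrays. Deletion replicate 2 reached the control values and the other deletion arrays lay below them. The difference was -0.17 (SE 0.09, unadjusted p 0.106), and -0.10 without deletion replicate 1, the lowest array. Without deletion replicate 2, the highest, it was -0.23, with a limma p of 0.0313 before adjustment and over 0.05 after it.

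Mxd4 was the most variable antagonist. It read 7.77, 7.63 and 8.19 on control arrays and 7.29, 7.95, 7.78 and 7.77 on deletion arrays. The lowest value, on deletion replicate 1, and the highest, on control replicate 3, both stood off from arrays of their own group. The difference was -0.17 (SE 0.18, unadjusted p 0.367), but -0.01 without control replicate 3, -0.03 without deletion replicate 1 and -0.28 without control replicate 2. Deletion replicate 1 thus held the lowest Mxd4, Mnt and, among deletion arrays, Mxd1 values.

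Mxd3, which is linked to S phase rather than to cell cycle exit, was the antagonist that was not lower. It read 6.35, 6.45 and 6.63 on control and 6.64, 6.50, 6.38 and 6.63 on deletion arrays, and the groups overlapped throughout. The difference was 0.06 (SE 0.09, unadjusted p 0.537), and 0.00 without control replicate 1.

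**Figure D2:**
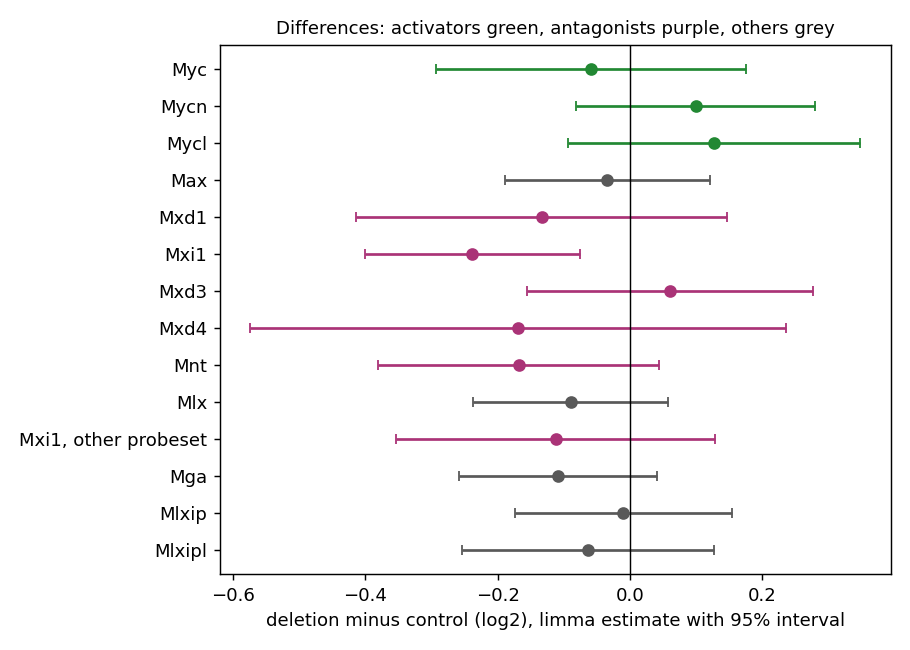
Deletion minus control difference in log2 units (points) with 95% intervals from limma (bars) for the 10 members, the other Mxi1 probeset and the related dimer partners Mga, Mlxip and Mlxipl, with 0 marked by the vertical line. The interval of Mxi1, -0.40 to -0.08, is the only one that leaves out 0, before adjustment over all probesets.

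Activators and antagonists were then compared within each array. The mean of the 5 antagonists was 8.38, 8.31 and 8.50 on control arrays and 8.14, 8.37, 8.25 and 8.31 on deletion arrays, or 8.40 ± 0.10 (SD, n = 3) against 8.27 ± 0.10 (SD, n = 4). The groups overlapped. The mean of the 3 activators was 7.06, 7.16 and 7.08 on control arrays and 7.11, 7.17, 7.21 and 7.14 on deletion arrays. It was higher by 0.06 on deletion arrays, where only the dim Mycn and Mycl were higher and Myc was lower. Each of the 3 weighed the same, though Myc read above each antagonist on every array. Activators minus antagonists was -1.32, -1.14 and -1.42 on control arrays and -1.03, -1.20, -1.03 and -1.18 on deletion arrays. Control replicate 2 lay among the deletion arrays and the other control arrays lay below them. The deletion arrays were higher by 0.19 on average, from -1.30 ± 0.14 (SD, n = 3) to -1.11 ± 0.09 (SD, n = 4), and by 0.12 to 0.26 with each array left out in turn. As the members were chosen with earlier results known, this balance is a description and was given no test. With Myc in place of the mean of all 3, the balance differed by 0.07, from 2.86 ± 0.31 (SD, n = 3) to 2.93 ± 0.05 (SD, n = 4), which is less than the spread between control arrays. That rests on single control arrays, since the value was 0.24 without control replicate 2, where all 4 deletion arrays lay above both other control arrays, and -0.06 without control replicate 3.

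**Figure D3:**
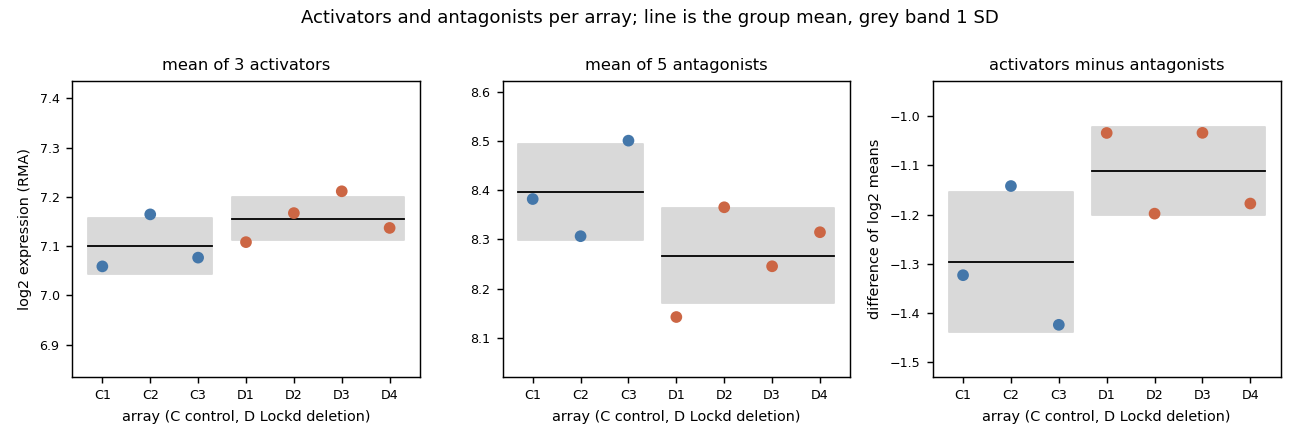
Mean log2 RMA expression of the 3 activators, of the 5 antagonists, and their difference on each array (C1 to C3 control, D1 to D4 Lockd deletion), with the group mean as a line and 1 SD as a band. In the third panel the deletion arrays lie between -1.20 and -1.03 and control replicate 2, at -1.14, lies among them.

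Mlx, the partner of the parallel branch, read 9.67, 9.56 and 9.61 on control arrays and 9.52, 9.45, 9.53 and 9.58 on deletion arrays. Only deletion replicate 4 lay above the lowest control array. The difference was -0.09 (SE 0.06, unadjusted p 0.201), with a 95% interval of -15.1% to 4.09%. The factors that pair with Mlx or Max outside the 10 genes were lower by small amounts, without passing. Mga, which pairs with Max in a Polycomb-related repressor complex, read 9.45, 9.52 and 9.37 on control and 9.34, 9.29, 9.38 and 9.35 on deletion arrays, a difference of -0.11 (SE 0.07, unadjusted limma p 0.135). Mlxip, the MondoA gene, differed by -0.01 (SE 0.07), and Mlxipl, the ChREBP gene, by -0.06 (SE 0.08). Mlxipl was dim, with a mean signal below the median of all genes. Of the 10 measured targets of MondoA, ChREBP and Mlx, 6 were lower and 4 higher with a median of -0.01. With each array centred on its median, 7 were lower and 3 higher. Centring also took the share of all genes that were higher from 52.2% to 42.1%. In limma 0 of these targets had an unadjusted p under 0.05, where 4.61% of all genes did. The smallest p among them were those of the hexokinase gene Hk2 at -0.37 (SE 0.20), the pyruvate kinase gene Pklr at -0.18 (SE 0.14) and G0s2, a lipolysis inhibitor gene, at 0.16 (SE 0.14).

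The proteins through which the network acts showed no member past the test either. The list of Myc coactivators and other cofactors included Trrap, several NuA4 subunits and the Miz1 gene Zbtb17. Of its 24 measured genes, 9 were lower and 15 higher, with a median of 0.01. With each array centred on its median, 16 were lower and 8 higher. The share of all genes that were higher also fell with centring, from 52.2% to 42.1%. The smallest p were those of the acetyltransferase gene Kat2b at -0.15 (SE 0.09), Yeats4 at 0.10 (SE 0.06) and the Myc-binding tumour suppressor gene Bin1 at 0.15 (SE 0.10). Bin1 was dim, with a mean signal below the median of all genes. Of 22 measured corepressor genes of the Sin3 and NCoR complexes, 9 were lower and 13 higher, with a median of 0.01, but 16 lower and 6 higher with arrays centred. Hdac2, a deacetylase of the Sin3 complex, differed by 0.11 (SE 0.06), Arid4b by -0.10 (SE 0.06) and Ing1 by -0.10 (SE 0.07). In limma 0 genes of either list had an unadjusted p under 0.05, where 4.61% of all genes did.

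Genes that control Myc were compared as well. Of 33 measured genes of Myc protein turnover, among them the ubiquitin ligase genes Fbxw7 and Skp2, 17 were lower and 16 higher, with a median of 0.00, and 25 lower and 8 higher with arrays centred. The kinase gene Pim2 differed by -0.13 (SE 0.08), Mycbp2 by -0.09 (SE 0.06) and Pim1 by -0.10 (SE 0.09). Of 30 measured genes of Myc transcription and mRNA control, 16 were lower and 14 higher, with a median of 0.00. With arrays centred, 19 were lower and 11 higher. Over all genes, 42.1% were higher with arrays centred and 52.2% as deposited. Stat5a, a cytokine signalling factor of erythroid cells, had the smallest p of this list. Control cells averaged 10.01 ± 0.18 (SD, n = 3) and deletion cells 9.59 ± 0.36 (SD, n = 4), which differ by -0.42 (SE 0.19, limma unadjusted p 0.0518). The mRNA decay factor gene Zfp36 differed by -0.32 (SE 0.15) and Stat5b by -0.15 (SE 0.08). In limma 0 genes of either list had an unadjusted p under 0.05, where 4.61% of all genes did.

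Genes listed as induced by Myc for the nucleolus and for metabolism were slightly higher without passing. Of 47 measured genes of the nucleolus and ribosome making, 41 were higher and 6 lower, with a median of 0.04. Nop16 differed by 0.14 (SE 0.08), the rRNA processing gene Rrp9 by 0.11 (SE 0.06) and Ppan by 0.11 (SE 0.06). Of 42 measured genes of metabolism, translation and chaperones, 35 were higher and 7 lower, also with a median of 0.04. The mitochondrial chaperone gene Hspe1 differed by 0.15 (SE 0.08), and the purine synthesis genes Gart and Atic by 0.12 (SE 0.06) and 0.10 (SE 0.06). Of 14 cell cycle genes 8 were higher and 6 lower, with a median of 0.01, Mcm5 at 0.03 (SE 0.06), Ccnd2 at -0.03 (SE 0.06) and E2f2 at -0.03 (SE 0.09). In limma 0 of the 103 distinct genes had an adjusted p under 0.05, where 0.00902% of all genes did. At an unadjusted p under 0.05 there were also 0, where 4.61% of all genes were. The unadjusted count was 9 with trend and robust settings and 3 without control replicate 2, all higher, with 0 past the adjusted threshold in both. The share of all genes at that level in those fits is not given here, so these counts lack a background. The groups did not overlap for 7, all higher, where 2.65% of all genes were higher without overlap.

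The mean shifts of the nucleolar and the metabolism list were smaller than the SD of the control arrays and larger than that of the deletion arrays. The mean of the 47 nucleolar genes was 10.75, 10.87 and 10.70 on control replicates 1 to 3 (SD 0.084) and 10.81 to 10.85 on deletion arrays (SD 0.019). Control replicate 2 was the highest of all 7 for these genes, as it was for Myc, and control replicate 3 the lowest for both. The median difference of the list was 0.10 without control replicate 2 and 0.01 without control replicate 3. The mean of the 42 genes of metabolism, translation and chaperones was 10.79, 10.86 and 10.78 on control arrays (SD 0.047) and 10.84 to 10.86 on deletion arrays (SD 0.011), again with control replicate 2 the highest. With each array centred on its median, the share of higher values was 62.1% of the 103 genes against 81.6% as deposited, and 42.1% of all genes against 52.2%. Centred, 35 of the 47 nucleolar genes, 27 of the 42 genes of metabolism and 2 of the 14 cell cycle genes were higher. Control replicate 2 was low for mast cell and basophil markers, whose mean over 8 genes was 5.12 there, 5.65 and 5.70 on the other control arrays and 5.21 to 5.56 on deletion arrays. It was also the lowest array for megakaryocyte markers, at 5.98, and for stromal and endothelial markers, at 5.19. For myeloid markers it was the lowest by little, at 4.707, with deletion replicate 3 at 4.709. Its mean of erythroid markers was 10.47, against 10.31 on both other control arrays and 10.32 to 10.47 on deletion arrays. Control replicate 2 also had the lowest median over the tested probesets, at 5.60 against 5.67 to 5.74. The part of these differences in the values of Myc and its targets was not tested.

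**Figure D4:**
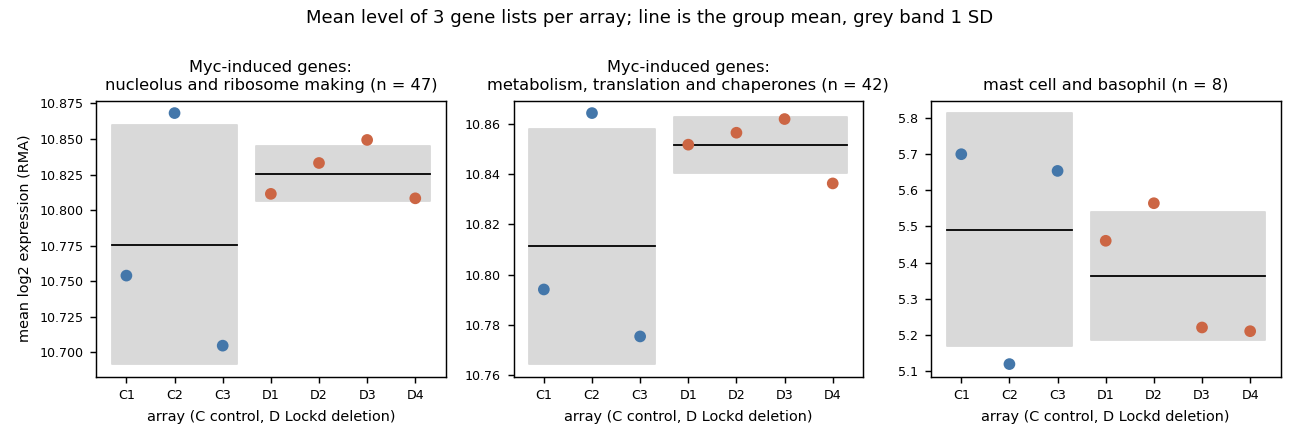
Mean log2 RMA expression per array of 47 nucleolar and ribosome-making genes, 42 genes of metabolism, translation and chaperones, and 8 mast cell and basophil markers (C1 to C3 control, D1 to D4 Lockd deletion; line, group mean; band, 1 SD; each panel has its own axis). Control replicate 2 is the highest array in the left and middle panels and, at 5.12, the lowest in the right panel.

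The induced genes were also split by the E-box in their promoters. The 24 induced genes with CACGTG had a median difference of 0.03, and so did the 69 without it, with 22 and 56 of them higher. Among all genes with a promoter and a signal above the median, the medians were 0.00 for the 1067 with the motif and 0.00 for the 7715 without it.

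Of 18 measured genes listed as repressed by Myc, 14 were lower and 4 higher, with a median of -0.04. With each array centred on its median, 15 were lower and 3 higher. Of all genes, 52.2% were higher as deposited and 42.1% with arrays centred. The signal of 12 of the 18 lay above the median of all genes. Cdkn1b, at -1.14 (SE 0.10), was the 1 member that passed, and it lies beside the deleted Lockd gene. Cdkn1c, the p57 gene, differed by 0.17 (SE 0.09) and Gas1, a growth arrest gene, by 0.14 (SE 0.09). Over all lists around the network, Cdkn1b was likewise the 1 gene of 241 distinct measured genes that passed and the 1 with an unadjusted p under 0.05, against 4.61% of all genes. The call of Cdkn1b was lost when any array other than deletion replicate 2 was left out. The unadjusted count was 13 in limma with trend and robust settings, 6 without control replicate 2, 5 without control replicate 3 or deletion replicate 2, and 2 without deletion replicate 1. The 4.61% belongs to the main fit, and the share of all genes in these other fits is not given here.

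**Figure D5:**
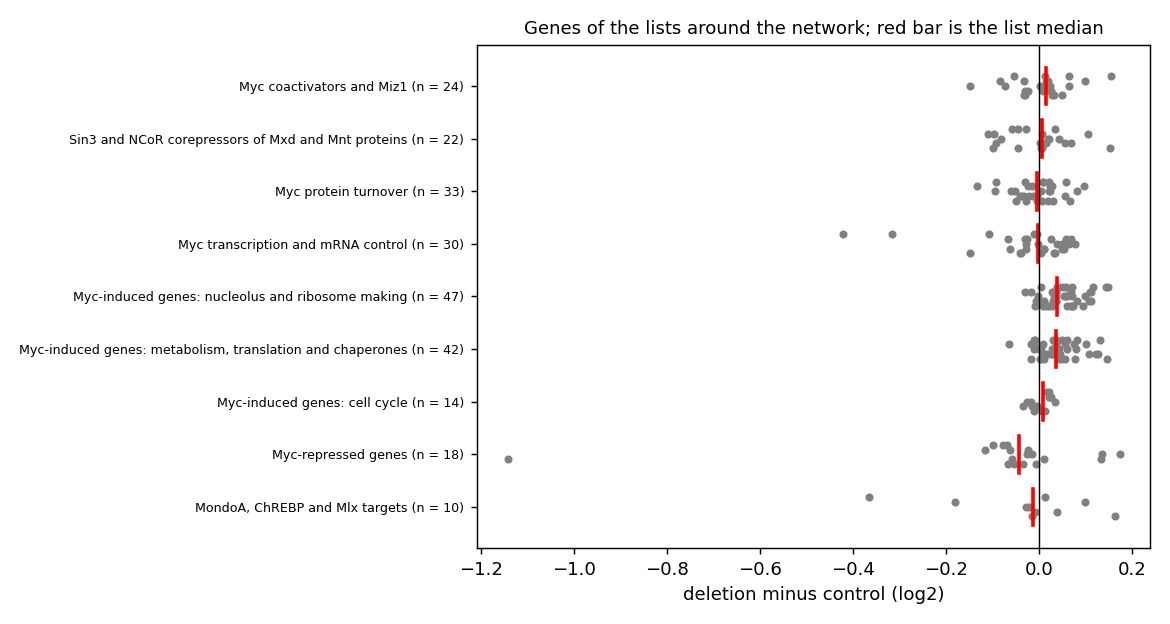
Deletion minus control difference in log2 units for each measured gene (grey points) of the 9 lists around the network with 10 or more measured genes, with the list median as a red bar and 0 as a black line. The list medians lie between -0.04 and 0.04, and the point far to the left, at -1.14, is Cdkn1b.

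The genes whose pattern over the 7 arrays was most like that of Myc were picked by Pearson's r among 7672 genes. These had a signal above the median and an SD of at least that of Myc divided by 2, with predicted genes left out. The picked genes are named next. Most like Myc were Fkbp1a, the FKBP12 immunophilin gene, with r = 0.96 and Spearman's rho = 0.89, Msi2, an RNA-binding protein gene of blood progenitors, with r = 0.95 and rho = 0.93, and Cbr4, a carbonyl reductase gene, with r = 0.95 and rho = 0.93. The values rest in part on control replicate 2, where Fkbp1a read 8.63 against 7.76 to 8.11 elsewhere. Without that array alone, r was 0.72, 0.83 and 0.77. Without both it and deletion replicate 4, the arrays farthest from the median of Myc, r was 0.76, 0.79 and 0.77 over 5 arrays. These are descriptions of genes picked for their likeness from many, over arrays of the same 2 groups, and carry no p-value.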

How the data were processed

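Per the submitters' processing notes, the authors ran RMA in Affymetrix Expression Console, and the deposited table holds its log2 output. RMA corrects background, equalises the arrays' distributions and summarises probes into probesets. No source used here gives the software version, array library files or genome build. The values themselves show the log2 scale. Groups and replicate numbers came from the titles.

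Of 41345 probesets, 23521 had exactly 1 symbol in the platform annotation and were tested with limma 3.58.1 in R 4.3.3 (lmFit and eBayes, all 7 arrays, two-sided, Benjamini-Hochberg adjustment over all 23521, threshold 0.05, no covariate and no filter). No other column of values was present. Precision is limited by the number of arrays. The fit was tested on simulated data with independent noise and with added differences larger than any among the members. No set test was run.

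The members and lists were chosen with earlier results of these data known. The rule named all members, Lockd, Cdkn1b, the 3 genes of each list with the smallest p, all other dimer partners and the 3 genes most like Myc. Titles give both groups replicates 1 to 3, but deviations of same-numbered arrays correlated at 0.02, 0.06 and -0.10, so they were not taken as pairs. The sample descriptions number the deletion samples differently, and the 2 pairs they would give correlated at -0.17 and -0.10. Alternatives were other probeset sets, variance models, array weights, scalings, probeset rules, a replicate block and left-out arrays.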

Additional observations from a re-analysis of the deposited data

Results flagged for a closer look

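On deletion replicate 3 Mycn read 5.56, below the other deletion arrays, of which the nearest was at 5.61. The gap was 84.2% of the range of the 4 arrays, past the 95% limit of Dixon's test for groups of 4. Chance passes that limit in about 1 in 20 groups, and 14 series of values were tested. The whole range of the 4 arrays was 0.06, and the control arrays ranged from 5.40 to 5.67.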

How the results depend on the processing

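In limma, 0 of the 10 members passed under any of the 15 alternatives (8 of them were tested once dim probesets were removed). Of the 10, 7 kept their direction in each. Alternatives that changed only the tested probesets or the variance model kept each difference of the main fit, so direction could not turn there. Averaging probesets changed the difference of Mxi1 alone among the members. With an array left out, Myc ranged from -0.14 to 0.066, Max from -0.068 to 0.023 and Mxd3 from -0.0011 to 0.14. The sign turned for Myc when control replicate 2 was left out, and for Max and Mxd3 when control replicate 1 was. The count of members at an unadjusted p under 0.05 was 1, 1 to 2 with an array left out and 0 with all probesets of a gene averaged. For this count and that of the related genes below, the share of all genes is given for the main fit alone. Activators minus antagonists differed by 0.12 to 0.26 over left-out arrays and by 0.16 to 0.21 otherwise. Of the 241 related genes, the count at that level was 1, 1 to 6 with an array left out, 13 with trend and robust settings, 3 with array weights, 3 with arrays centred, 2 with dim probesets removed and 2 with probesets averaged. Its count past the threshold, Cdkn1b, was 0 with all probesets of the array tested and 0 to 1 with an array left out. With the replicate block, Mxi1 differed by -0.27 with an unadjusted p of 0.0253, activators minus antagonists by 0.21, 0 members passed, and 3 related genes were under an unadjusted p of 0.05 and 0 past the threshold. The block gave each member the same difference as leaving out deletion replicate 4, which had no control array of its number. Not every array correlated best with the array of its own number. Low signal limits Mycn and Mycl, and Mlxipl and Bin1 among the related genes named. With 3 and 4 arrays, true differences of any size inside the unadjusted intervals given remain possible.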
